A study of Mus musculus with 8 samples.

Results

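The genes described here are 35 members of the glucose-to-lactate pathway and of the transcriptional response to low oxygen. They were chosen by name from the deposited table, and all 35 were found among its 45777 genes and had enough reads to be tested. The samples were primary hepatic stellate cells, which hold vitamin A in the healthy liver and turn into matrix-producing myofibroblasts when they activate. They came from male wild-type C57BL/6 mice, and 4 libraries were made after transfection with a control siRNA (siControl) and 4 after transfection with an siRNA against PAK4 (siPAK4), a kinase that acts on the actin cytoskeleton. All 8 libraries carry the same batch label, were made from 1 µg of total RNA each and were compared to see how the transcriptome differs when PAK4 is silenced during stellate cell activation. The labels do not say whether the 4 samples of a group came from separate mice or dishes, so every p-value reflects only the variation among these libraries, and that variation may be technical. The sources used here do not give the age of the mice, the siRNA sequence, the oxygen level in culture or the time after transfection.

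Glycolysis splits glucose into pyruvate. Glucose enters through GLUT transporters, hexokinase traps it, phosphofructokinase commits it to breakdown, and a run of abundant enzymes yields ATP and NADH. Pyruvate is then either reduced to lactate by lactate dehydrogenase and exported by monocarboxylate transporters, or oxidised in mitochondria by the pyruvate dehydrogenase complex, which the PDK kinases switch off. Most of these genes are known targets of HIF-1, a transcription factor whose alpha subunit (Hif1a) is destroyed in the presence of oxygen after the prolyl hydroxylases of the EGLN family mark it. HIF-1 is controlled chiefly through the stability of this protein, which RNA counts do not measure. In hepatic stellate cells, a shift to lactate-producing glycolysis is known to accompany activation.

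The libraries held 55728583 to 61535063 counts. Pak4 was at 16.2 to 18.6 CPM (read counts scaled to a common library size) in siControl and at 5.17 to 7.73 CPM in siPAK4, a log2 fold change of −1.44 (edgeR quasi-likelihood test, adjusted p = 9.4e-06), in keeping with the labels. The stellate cell markers Des and Pdgfrb averaged 18.0 and 27.5 CPM in siControl, while Lrat and Gfap had 0 to 4 reads per siControl library and, in siPAK4, 7 to 22 reads and none. The endothelial gene Cdh5 averaged 1620.4 CPM and the macrophage gene Lyz2 7815 CPM there, so RNA of other liver cell types was abundant. The summed level of 14 macrophage markers ranged from 10002 to 11600 CPM in siControl and from 5883 to 9208 CPM in siPAK4. The 14 endothelial markers summed to 7174 to 7425 and to 4482 to 6482 CPM, and the 12 stellate cell markers to 425 to 660.1 and to 191 to 278 CPM, in the same order. Of the markers tested, 7 of 13 macrophage, 7 of 14 endothelial and 6 of 10 stellate cell genes were lower with siPAK4, and 3 endothelial genes were higher. Over all tested genes 14.5% were lower and 12.4% higher. None of these 40 markers was at 0 in every library. Of 7 tested hepatocyte markers, 3 were higher and 1 lower: Alb rose from 1.75 to 7.83 CPM (2.17, adjusted p = 0.00031), as did the scarcer Serpina1c and Ahsg, while Trf, which made up most of the summed level, fell from 363 to 286 CPM (−0.34, adjusted p = 0.033). The sum was 360 to 376 CPM in siControl and 223 to 334 CPM in siPAK4. The cholangiocyte and neutrophil sums overlapped between the groups, with 1 of 5 and 0 of 1 tested genes called: cholangiocyte markers summed to 1137 to 1610.0 and 1033 to 1502 CPM, and neutrophil markers to 6.83 to 11.3 and 10.6 to 14.0 CPM, with Ly6g, Elane and Retnlg at 0 throughout. Spp1 (means of 1392 and 1183 CPM) made up most of the cholangiocyte sum. In siControl the other cholangiocyte markers averaged from 0.11 CPM (Epcam) to 10.02 CPM (Cftr). The macrophage, endothelial, stellate cell and hepatocyte sums did not overlap between the groups and were lower with siPAK4. Lyz2 (means of 7815 and 4849.5 CPM) made up most of the macrophage sum. Col1a1 (328 and 122 CPM) and Acta2 (125 and 40.4 CPM) made up most of the stellate cell sum. Of the tested markers, 6 macrophage, 4 endothelial and 4 stellate cell genes did not pass. Among them were Adgre1 (0.14, adjusted p = 0.34), Cd68 (−0.04, adjusted p = 0.72) and Reln (0.17, adjusted p = 0.15). The part of these cell types in the differences given here was not tested. In such a mixture, fewer cells of a type and less RNA per cell cannot be told apart. The library siPAK4 replicate 3 stood apart from the other siPAK4 libraries, with the highest macrophage sum (9208 CPM) and the lowest endothelial sum (4482 CPM) of its group, and member calls that change without it are given both ways. Without it, 9 macrophage markers were lower.

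HIF binds DNA at a short core that reads ACGTG or GCGTG on either strand (CACGT or CACGC when read on the opposite strand). RefSeq promoter windows (build GRCm38.p6, which is mm10, from 250 bases before to 50 bases after a gene's start) were given for 31 members, and 28 of these, or 90.3%, held the core at least once in a window. The same was true of 46.7% of all 27025 genes with a window and of 63.1% of the 12908 tested genes with one. A gene with more windows has more chances to match. Counted by window, 36 of 45 member windows (80%) and 14380 of all 32851 windows (43.8%) held the core. The 3 members with a window and no core in it were Gpi1, Tpi1 and Eno2. All 6 members that rose with siPAK4, all 5 that fell and 17 of the 20 others with a window held the core. With the core in 28 of the 31 members, its presence could not tell these groups apart. The stretches below show the core for 4 members that rose, 1 that fell and 2 that did not pass. Each is the part of the most upstream window given for the gene that lies before the window's transcript start and ahead of any annotated exon, written 5′ to 3′ in the direction of the gene, with every match to the core in capitals. A CACGTG is 1 palindromic site that matches on both strands. For Hif1a and Ldha the annotation has a further start upstream, so these stretches lie within the gene's annotated span. A match describes letters and does not show that HIF bound there.
Bnip3 (rose; chr7:138909520-138909756, minus strand): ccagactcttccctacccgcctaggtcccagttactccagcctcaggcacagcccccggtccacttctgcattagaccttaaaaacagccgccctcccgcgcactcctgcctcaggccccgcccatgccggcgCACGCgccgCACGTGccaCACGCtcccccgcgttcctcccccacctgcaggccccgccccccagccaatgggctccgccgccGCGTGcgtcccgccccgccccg
Slc2a1 (rose; chr4:119108495-119108710, plus strand): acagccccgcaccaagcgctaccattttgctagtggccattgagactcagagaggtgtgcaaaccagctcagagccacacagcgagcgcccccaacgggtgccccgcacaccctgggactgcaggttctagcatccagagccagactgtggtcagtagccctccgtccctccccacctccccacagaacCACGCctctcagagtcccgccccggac
Hif1a (rose; chr12:73907617-73907866, plus strand): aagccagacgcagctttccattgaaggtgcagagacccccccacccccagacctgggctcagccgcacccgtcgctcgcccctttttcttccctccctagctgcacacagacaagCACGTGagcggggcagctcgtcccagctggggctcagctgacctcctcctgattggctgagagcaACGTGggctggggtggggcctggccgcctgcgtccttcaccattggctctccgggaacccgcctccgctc
Egln3 (rose; chr12:54203875-54204124, minus strand): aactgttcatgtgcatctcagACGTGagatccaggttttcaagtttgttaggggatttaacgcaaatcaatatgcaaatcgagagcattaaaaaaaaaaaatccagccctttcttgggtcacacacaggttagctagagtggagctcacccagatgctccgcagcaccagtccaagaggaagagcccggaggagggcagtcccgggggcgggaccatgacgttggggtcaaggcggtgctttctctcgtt
Ldhb (fell; chr6:142507958-142508207, minus strand): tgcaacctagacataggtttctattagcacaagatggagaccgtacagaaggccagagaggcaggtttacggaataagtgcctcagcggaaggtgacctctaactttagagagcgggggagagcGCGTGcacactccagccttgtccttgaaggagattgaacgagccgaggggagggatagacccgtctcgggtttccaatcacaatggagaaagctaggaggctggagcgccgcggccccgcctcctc
Ldha (did not pass; chr7:46845554-46845803, plus strand): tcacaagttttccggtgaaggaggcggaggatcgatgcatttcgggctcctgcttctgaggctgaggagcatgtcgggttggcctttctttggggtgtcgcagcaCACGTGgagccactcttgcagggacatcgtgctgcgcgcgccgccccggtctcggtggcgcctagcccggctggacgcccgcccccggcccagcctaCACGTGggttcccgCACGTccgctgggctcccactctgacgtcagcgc
Pgk1 (did not pass; chrX:106186850-106187099, plus strand): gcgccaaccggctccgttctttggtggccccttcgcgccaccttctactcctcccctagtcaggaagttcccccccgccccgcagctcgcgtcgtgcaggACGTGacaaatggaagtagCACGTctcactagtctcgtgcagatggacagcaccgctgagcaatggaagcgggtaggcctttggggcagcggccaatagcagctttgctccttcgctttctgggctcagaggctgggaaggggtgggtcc

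The Ldha stretch held a pair of CACGTG palindromes and a further CACGT. The Pgk1 stretch held ACGTG at 150 bases and CACGT at 131 bases before the start. Neither gene passed the test with all 8 libraries, and Pgk1 passed as lower without siPAK4 replicate 3 (−0.18, adjusted p = 0.031). Bnip3 had a cluster of a CACGTG and 2 CACGC between 117 and 99 bases before its start. The Slc2a1 stretch held a single CACGC, 61 bases before the start, and the Egln3 stretch a single ACGTG, 229 bases before it.

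Of the 19 members that act from glucose entry to pyruvate, 1 was higher with siPAK4, 3 were lower and 15 did not pass. Of all 35 members, 6 were higher, 5 were lower and 24 did not pass (31.4% called). Over all 17975 tested genes 26.9% were called, 12.4% higher and 14.5% lower, so the members' share was near the background. The 2 groups of libraries did not overlap for 13 members (37.1%), against 28.8% of all tested genes. The members' median log2 fold change was −0.03 and that of all tested genes was 0.01. Their median size of change, regardless of sign, was 0.16 on the log2 scale, against 0.19 over all tested genes. No member reached a 2-fold change, which 5.75% of tested genes did. The members that rose were Hif1a, Bnip3, Slc2a1, Pdk4, Egln3 and Slc16a1, and those that fell were Aldoc, Pfkm, Ldhb, Pdk3 and Gapdh. The counts depended on scaling. Library totals in place of TMM moved the median of all tested genes up by 0.09 on the log2 scale. With library totals, 13 members were higher and 3 lower, and of the 19 glycolytic members 8 were higher and 2 lower. Of all 17975 tested genes, 3877 were higher and 1859 lower with library totals. Without siPAK4 replicate 3, 3 of the 19 glycolytic members were higher and 6 lower, against 2496 and 2998 of 18220 tested genes.

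**Figure D1:**
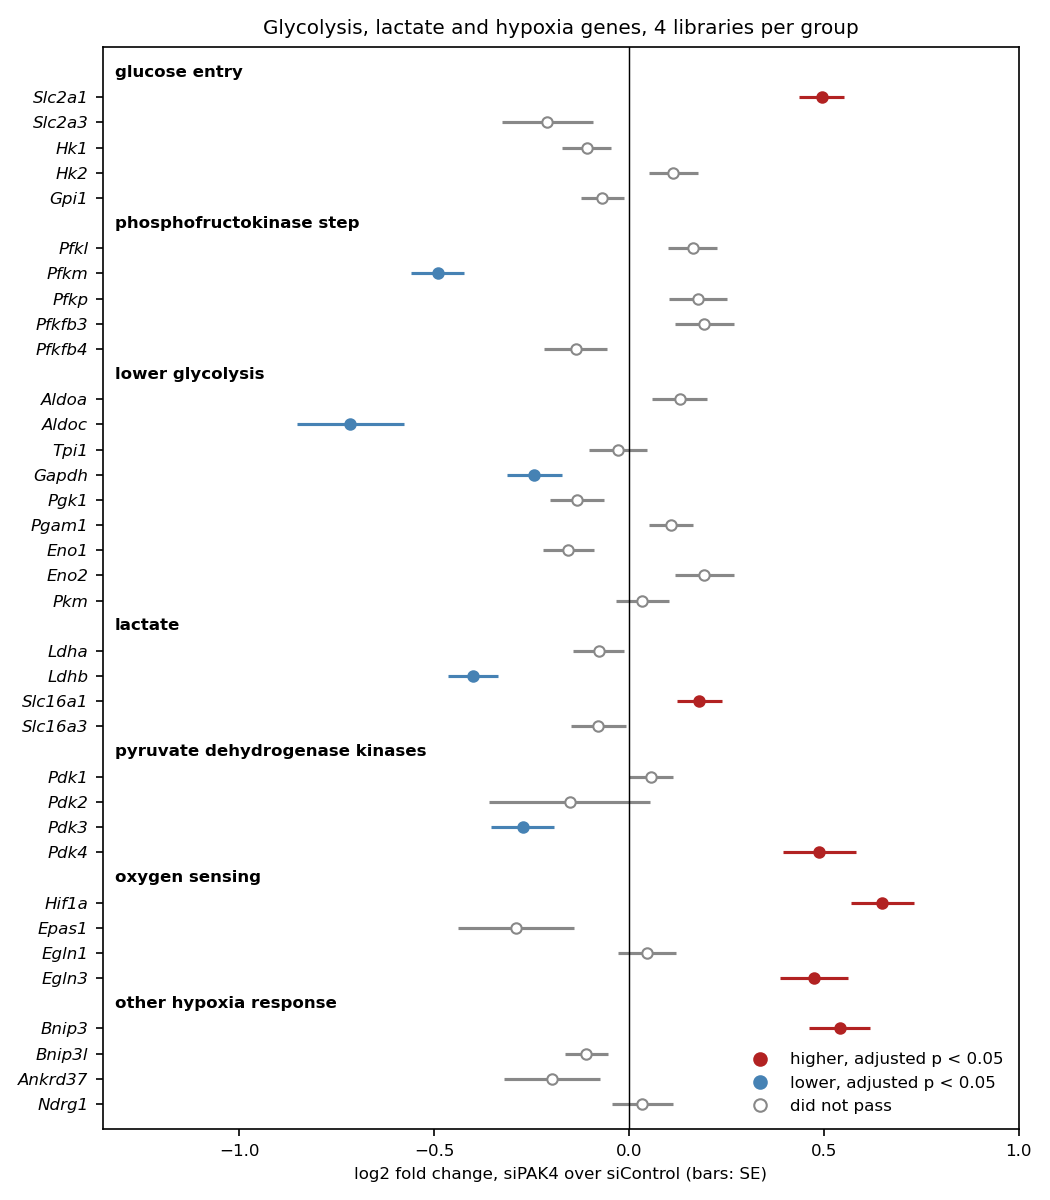
Log2 fold change of each of the 35 members, siPAK4 over siControl (x axis), grouped by role, with the standard error as bars. Filled points passed an adjusted p of 0.05 in edgeR's quasi-likelihood test. Hif1a lies farthest to the right at 0.65 and Aldoc farthest to the left at −0.72.

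Levels per length differed by orders of magnitude between members. In siControl the highest was Pkm, the muscle-type pyruvate kinase that makes pyruvate, at 2500.4 ± 93.8 TPM (a transcript share that accounts for gene length; SD, n = 4). The fructose-bisphosphate aldolase Aldoa followed at 1987 ± 60.3 TPM. Pgk1, at 1280.5 ± 33.2 TPM, and Eno1, at 1257 ± 36.3 TPM, were neighbours in this order that did not differ beyond their spread. Ldha, which reduces pyruvate to lactate, stood at 1079 ± 22.5 TPM. Hif1a was at rank 10 with 252 ± 31.5 TPM, above Bnip3 with 154 ± 11.7 TPM and Slc2a1 with 90.4 ± 4.16 TPM. The lowest were Slc2a3 at 3.94 ± 0.477 TPM and Pdk2 at 2.56 ± 0.856 TPM. All 6 genes that rose, and those that fell except Gapdh, lay below the 9 most abundant members, and of those 9 only Gapdh passed the test.

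**Figure D2:**
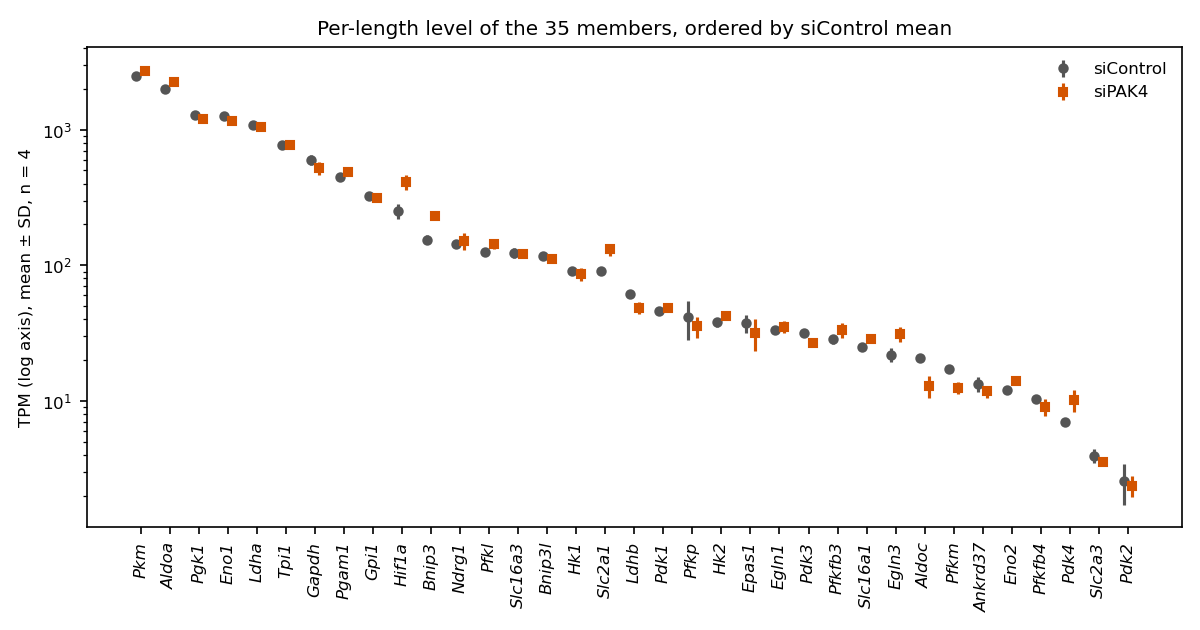
TPM (y axis, log scale) of the 35 members, ordered by the siControl mean, with mean and SD of 4 libraries for siControl (circles) and siPAK4 (squares). The order runs from Pkm at 2500.4 TPM to Pdk2 at 2.56 TPM in siControl.

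Oxygen sensing showed the largest rise. Hif1a (mm10 chromosome 12, 73901324 to 73947554), the oxygen-regulated subunit of HIF-1, was at 592, 463, 563 and 508 CPM in siControl replicates 1 to 4 and at 834, 906, 789 and 807 CPM in siPAK4 replicates 1 to 4. Every siPAK4 library was above every siControl library. The log2 fold change was 0.65 (SE 0.0814, adjusted p = 0.00015), which is 1.57-fold. It held under all 17 alternative settings, between 0.59 and 0.76. Epas1, which encodes the HIF-2 alpha subunit and is strongly expressed in endothelial cells, was at 104, 101, 88.8 and 78.0 CPM in siControl and at 91.7, 78.6, 52.3 and 81.4 CPM in siPAK4. The groups overlapped, and the test was not passed (−0.29, SE 0.149, adjusted p = 0.18). The lowest value was in siPAK4 replicate 3, the library with the lowest endothelial marker sum. In siControl replicates 1 to 4 that sum was 7345, 7425, 7174 and 7278 CPM. A relation of Epas1 to the endothelial markers was not tested. Without siPAK4 replicate 3 the log2 fold change of Epas1 was −0.15 (adjusted p = 0.26).

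Among the prolyl hydroxylases that mark HIF alpha subunits for destruction, Egln3 rose and Egln1 did not pass. Egln3 (PHD3; chromosome 12, 54178981 to 54203874), itself a HIF target, was at 27.9, 30.1, 28.2 and 23.3 CPM in siControl and at 36.9, 40.8, 34.0 and 40.4 CPM in siPAK4. The groups did not overlap, and the log2 fold change was 0.47 (SE 0.0873, adjusted p = 0.0020). Egln1 (PHD2), the main oxygen sensor in most cells, ranged from 52.2 to 57.5 CPM in siControl and from 51.7 to 65.0 CPM in siPAK4 (0.05, SE 0.0743, adjusted p = 0.70). The third family member Egln2, which is outside the 35, rose by 0.26 on the log2 scale (adjusted p = 0.010).

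Of the other genes of the low-oxygen response, only Bnip3 passed the test. Bnip3 (chromosome 7, 138890836 to 138909506), a mitochondrial outer membrane protein that targets mitochondria for autophagy, was at 114, 122, 139 and 132 CPM in siControl. In siPAK4 it was at 165, 180.3, 206 and 187 CPM, above every siControl library. Its log2 fold change was 0.54 (SE 0.0781, adjusted p = 0.00041). Its relative Bnip3l (NIX), with the same function, was at 172, 169, 190.0 and 173 CPM in siControl and at 163, 156, 165 and 168 CPM in siPAK4. Those groups did not overlap either, in the opposite direction, but the difference was small and did not pass (−0.11, SE 0.0547, adjusted p = 0.16). Ankrd37, a compact HIF target encoding an ankyrin repeat protein, ranged from 4.86 to 6.53 CPM in siControl and from 4.48 to 5.79 CPM in siPAK4 (−0.20, adjusted p = 0.27), and it overlaps Ufsp2 in the annotation, so its reads are uncertain. Ndrg1, a stress-responsive gene widely used as a hypoxia marker, ranged from 186 to 198 CPM and from 170.1 to 229 CPM (0.03, adjusted p = 0.79).

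**Figure D3:**
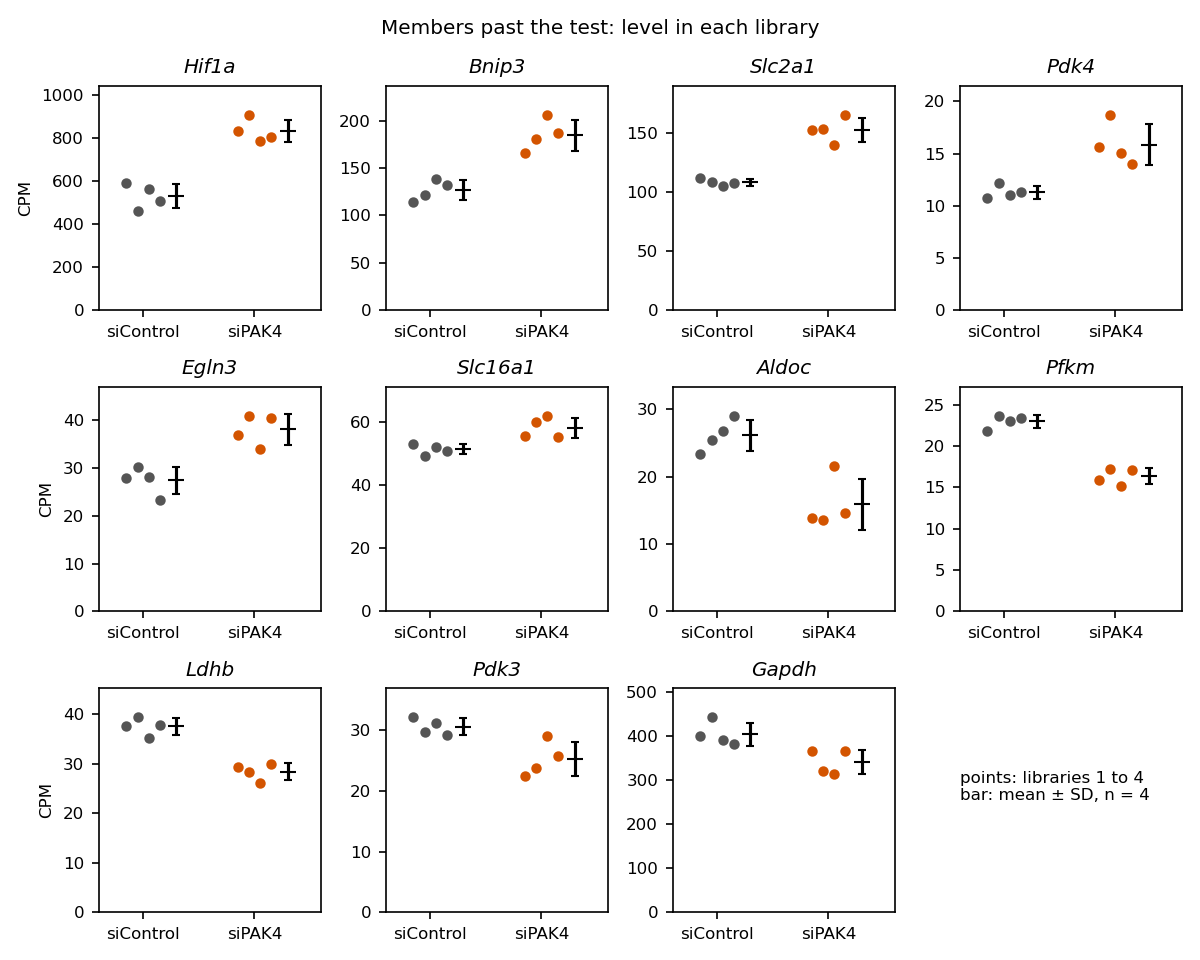
CPM in each library (y axis, from 0) for the 11 members that passed the test, siControl on the left and siPAK4 on the right of each panel, with the mean and SD of 4 libraries as a bar. In each of the 11 panels the 2 groups are separate, for Pdk3 only just, with 29.0 CPM in siPAK4 replicate 3 and 29.2 CPM in siControl replicate 4.

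At the point where glucose enters, the main transporter gene rose and the enzyme genes did not pass. Slc2a1 (GLUT1; chromosome 4, 119108745 to 119137330), the basal glucose transporter, was at 113, 109, 105 and 108 CPM in siControl and at 153, 154, 140.4 and 165 CPM in siPAK4. The lowest siPAK4 library was well above the highest siControl library, and the log2 fold change was 0.50 (SE 0.0577, adjusted p = 9.2e-05). Slc2a3 (GLUT3) was scarce, at 6.75 to 8.77 CPM in siControl and 5.63 to 7.42 CPM in siPAK4 (−0.21, adjusted p = 0.21). The hexokinase genes had opposite signs without passing. Hk1, the ubiquitous form, averaged 173 ± 6.56 and 161 ± 12.5 CPM (−0.11, adjusted p = 0.23), and Hk2, the inducible form, 97.7 ± 5.33 and 106 ± 7.42 CPM (0.11, adjusted p = 0.22; SD, n = 4). With library totals Hk2 passed as higher (0.20, adjusted p = 0.026). Gpi1, which converts glucose-6-phosphate to fructose-6-phosphate, averaged 435 ± 9.68 and 415 ± 20.1 CPM (−0.07, adjusted p = 0.39).

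At the phosphofructokinase step the muscle isoform fell. Pfkm (chromosome 15, 98092589 to 98132447) was at 21.8, 23.6, 23.1 and 23.4 CPM in siControl and at 15.9, 17.2, 15.1 and 17.1 CPM in siPAK4. The groups were far apart relative to their spread, and the log2 fold change was −0.49 (SE 0.0669, adjusted p = 0.00027). Pfkm overlaps Senp1 in the annotation, so its reads are uncertain. Over all libraries Senp1 had 15721 reads and Pfkm 9052, and Senp1 did not pass (0.12, adjusted p = 0.15). The liver isoform Pfkl, the most abundant of these isoforms per length, averaged 221 ± 12.5 CPM in siControl and 247.4 ± 14.98 CPM in siPAK4 (0.16, adjusted p = 0.074). The platelet isoform Pfkp averaged 110.2 ± 5.60 and 125 ± 13.2 CPM (0.18, adjusted p = 0.10). Its sign depended on the unit, since the difference on the log2(TPM + 1) scale was −0.18 (limma adjusted p = 0.56). It passed as higher without siPAK4 replicate 1 (0.23, adjusted p = 0.041), and it overlaps Pitrm1, which was lower (−0.18, adjusted p = 0.025), so its reads are uncertain. Pfkfb3, which makes the activator fructose-2,6-bisphosphate, averaged 64.8 ± 3.13 and 74.1 ± 7.80 CPM (0.19, adjusted p = 0.080). Pfkfb4 averaged 18.4 ± 0.742 and 16.7 ± 1.70 CPM (−0.14, adjusted p = 0.24). Without siPAK4 replicate 3, Pfkfb3 (0.25, adjusted p = 0.0061) and Pfkl (0.18, adjusted p = 0.047) passed as higher and Pfkfb4 (−0.21, adjusted p = 0.035) as lower. With library totals, 3 of the 5 genes of this step were higher (Pfkl, Pfkp and Pfkfb3) and 1 lower.

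Among the lower glycolytic enzymes 2 of 9 genes fell and none rose, but with library totals 3 were higher and 1 lower. Aldoc (chromosome 11, 78323073 to 78327781), the brain-type aldolase, had the largest change of all members. It was at 23.4, 25.4, 26.7 and 29.0 CPM in siControl and at 13.9, 13.6, 21.5 and 14.7 CPM in siPAK4. The value of 21.5 CPM belongs to siPAK4 replicate 3 and lay close to the siControl range. The log2 fold change was −0.72 (SE 0.137, adjusted p = 0.0027), and −0.90 without that library. Gapdh (chromosome 6, 125161852 to 125166467), often used as a reference gene, was at 399.5, 443, 391.8 and 382 CPM in siControl and at 365, 322, 313 and 365 CPM in siPAK4. Its log2 fold change of −0.24 (SE 0.0711, adjusted p = 0.025) did not pass with library totals (adjusted p = 0.12), without siControl replicate 2 (adjusted p = 0.083) or without siPAK4 replicate 2 (adjusted p = 0.085).

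The 7 other genes of this stretch did not pass, although with library totals Aldoa (0.22, adjusted p = 0.029), Pgam1 (0.20, adjusted p = 0.015) and Eno2 (0.28, adjusted p = 0.013) were called higher. Aldoa averaged 1435 ± 69.3 CPM in siControl and 1570.3 ± 123 CPM in siPAK4 (0.13, adjusted p = 0.20), Tpi1, the triose isomerase, 577 ± 38.4 and 565 ± 50.5 CPM (−0.03, adjusted p = 0.82). Pgk1, the first ATP-yielding enzyme, averaged 1093 ± 49.9 and 996 ± 79.3 CPM (−0.13, adjusted p = 0.18), and Pgam1, the phosphoglycerate mutase, 380.2 ± 2.31 and 409.6 ± 24.7 CPM (0.11, adjusted p = 0.18). The enolase Eno1 averaged 1044 ± 30.6 and 938 ± 71.5 CPM (−0.16, adjusted p = 0.10), with groups that did not overlap, though the lowest siControl and the highest siPAK4 library both read 1012 CPM after rounding. Eno2, the neuronal enolase, averaged 15.2 ± 0.712 and 17.4 ± 1.39 CPM (0.19, adjusted p = 0.082), and Pkm 2898 ± 154 and 2967 ± 147 CPM (0.03, adjusted p = 0.76). Without siPAK4 replicate 3, Eno1 (−0.20, adjusted p = 0.022) and Pgk1 (−0.18, adjusted p = 0.031) passed as lower. Some of these genes have near-identical copies elsewhere in the genome, and their values are uncertain to that extent. The pseudogene Pgam1-ps2 took 28.5% of the reads of the Pgam1 family, Pgk1-rs7 8.65% of those of Pgk1, and the retrogene Eno1b 5.62% of those of Eno1. When the reads of such copies were added to their parent gene, an alternative chosen after seeing the data, no member's call changed.

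In lactate handling, Ldhb fell and Slc16a1 rose, while the 2 genes most tied to lactate output did not pass. Ldhb (chromosome 6, 142490249 to 142507957), the heart-type subunit that favours the conversion of lactate back to pyruvate, was at 37.7, 39.4, 35.2 and 37.9 CPM in siControl and at 29.4, 28.3, 26.1 and 30.0 CPM in siPAK4. The groups did not overlap, and the log2 fold change was −0.40 (SE 0.0646, adjusted p = 0.00084). Ldha, the muscle-type subunit, was at 773, 829, 824 and 849 CPM and at 712, 769.8, 850.0 and 771 CPM, with overlapping groups (−0.08, SE 0.0655, adjusted p = 0.42). Slc16a1 (MCT1; chromosome 3, 104638664 to 104658462), a lactate transporter that works in both directions, was at 53.0, 49.3, 52.1 and 50.8 CPM in siControl and at 55.6, 60.0, 61.8 and 55.3 CPM in siPAK4. Its rise was small, 0.18 on the log2 scale (SE 0.0574, adjusted p = 0.036), and did not pass with the replicate block (0.18, adjusted p = 0.061) or without siControl replicate 2, 3 or 4 or siPAK4 replicate 2 or 3 (adjusted p of 0.053 to 0.11). Slc16a3 (MCT4), the exporter of glycolytic cells, averaged 143 ± 13.5 and 136 ± 6.80 CPM (−0.08, adjusted p = 0.45), and it overlaps Csnk1d.

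The pyruvate dehydrogenase kinases, which block the entry of pyruvate into mitochondrial oxidation, went both ways. Pdk4 (chromosome 6, 5483351 to 5496278), the isoform known to rise in fasting, was at 10.7, 12.1, 10.998 and 11.4 CPM in siControl and at 15.7, 18.7, 15.1 and 14.0 CPM in siPAK4. Every siPAK4 library was higher, and the log2 fold change was 0.49 (SE 0.0942, adjusted p = 0.0027). Pdk3 (chromosome X, 93764616 to 93832150) was at 32.1, 29.7, 31.3 and 29.2 CPM in siControl and at 22.5, 23.9, 29.0 and 25.8 CPM in siPAK4. Its log2 fold change of −0.27 (SE 0.0805, adjusted p = 0.026) rests on groups that nearly touch at siPAK4 replicate 3. It did not pass with library totals (adjusted p = 0.079), nor without siControl replicate 1, siControl replicate 3, siPAK4 replicate 1 or siPAK4 replicate 2 (adjusted p of 0.068, 0.068, 0.071 and 0.082). Pdk1, an isoform known as a HIF-1 target, was at 108, 108, 118 and 116 CPM and at 111, 111, 123 and 123 CPM (0.06, adjusted p = 0.51). Pdk2 was the scarcest member, with 118 to 222 reads per library, at 2.00 to 3.97 CPM in siControl and 2.16 to 2.78 CPM in siPAK4 (−0.15, adjusted p = 0.64).

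Shares of TPM were computed among the isoforms that are members, leaving out other isoforms of the same enzyme. Aldoc made up 0.977% to 1.10% of Aldoa plus Aldoc TPM in siControl and 0.520% to 0.709% in siPAK4. Ldhb made up 5.09% to 5.73% of Ldha plus Ldhb TPM in siControl and 3.71% to 4.91% in siPAK4, so Ldha gave over 94% of it in every library. Pfkm made up 8.56% to 10.2% of phosphofructokinase TPM and 6.12% to 6.96% with siPAK4. In these 3 comparisons the scarcest isoform had a lower share in every siPAK4 library. The share of Eno2 was higher in every siPAK4 library, from 0.882% to 0.997% of Eno1 plus Eno2 TPM in siControl to 1.16% to 1.24% in siPAK4; Eno3 and the retrogene Eno1b are not in that sum. Among the 4 PDK genes, Pdk4 went from 7.63% to 8.70% up to 10.1% to 13.6%, Pdk3 from 34.8% to 38.5% down to 29.0% to 32.9%, and Pdk1 stayed the largest with means of 52.7% and 55.3%. Slc2a3 went from 3.64% to 4.86% of the TPM of both transporters down to 2.31% to 3.26%. Of Hk1 plus Hk2 TPM, Hk2 made up 29.2% to 29.9% in siControl and 29.6% to 35.9% in siPAK4, which overlapped; Hk3, a further hexokinase gene with 180.0 ± 9.59 CPM in siControl, is not in that sum. These shares are descriptions and were not tested.

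**Figure D4:**
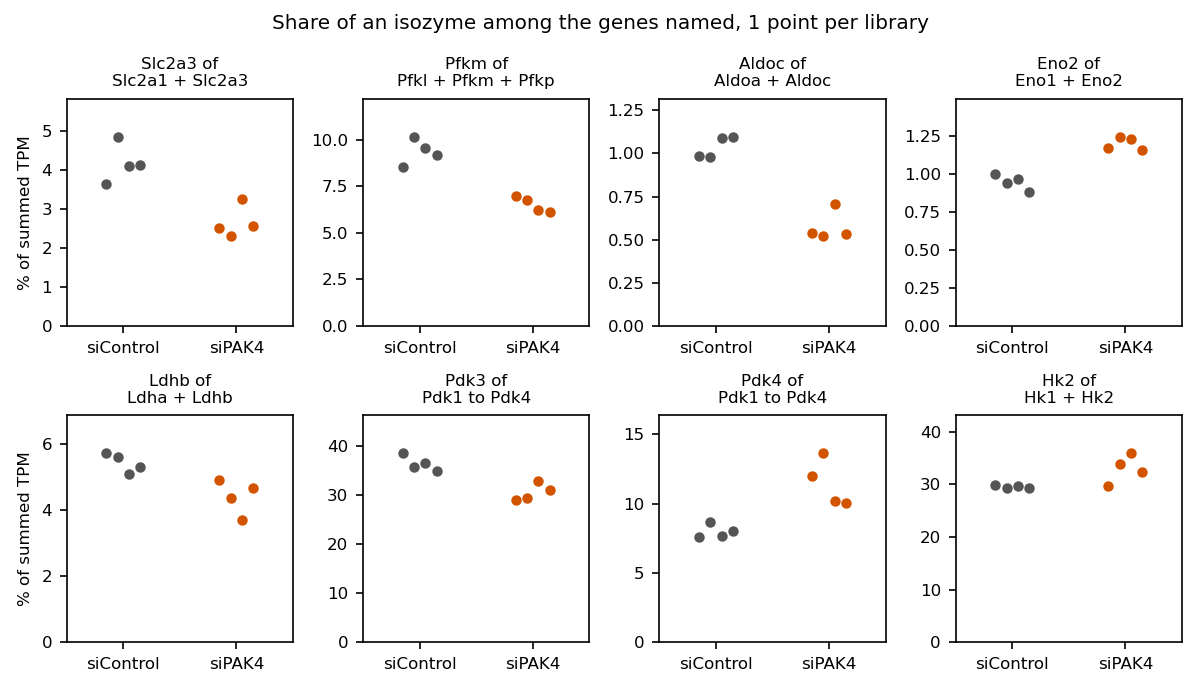
Share of an isoform in the summed TPM of the genes named above each panel (y axis, percent, from 0), 1 point per library, siControl on the left and siPAK4 on the right of each panel. The shares of Slc2a3, Pfkm, Aldoc, Ldhb and Pdk3 are lower and those of Eno2 and Pdk4 higher in every siPAK4 library, while Hk2 overlaps.

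The other genes of these pathways were read from lists that earlier results of these data had informed. Of 29 tested further HIF targets, 8 were higher, 3 were lower and 18 did not pass, with a median log2 fold change of 0.09. The share called was 37.9%, against 26.9% of all tested genes (12.4% higher and 14.5% lower). With library totals 13 of these HIF targets were higher and 3 lower, and with DESeq2 9 were higher and 4 lower. Those settings also moved the background. Of all 17975 tested genes, 3877 were higher and 1859 lower with library totals, and 2532 and 2848 with DESeq2. The oxidoreductase gene Ero1l, which drives disulfide formation in the endoplasmic reticulum, rose from 175 ± 14.2 to 274 ± 23.9 CPM (0.64, adjusted p = 0.00010; SD, n = 4). The lipoprotein receptor gene Vldlr rose from 28.1 ± 0.861 to 40.9 ± 1.93 CPM (0.54, adjusted p = 5.7e-05). Stc2, a secreted glycoprotein gene, fell from 12.7 ± 1.09 to 7.74 ± 1.26 CPM (−0.72, adjusted p = 0.00089).

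**Figure D5:**
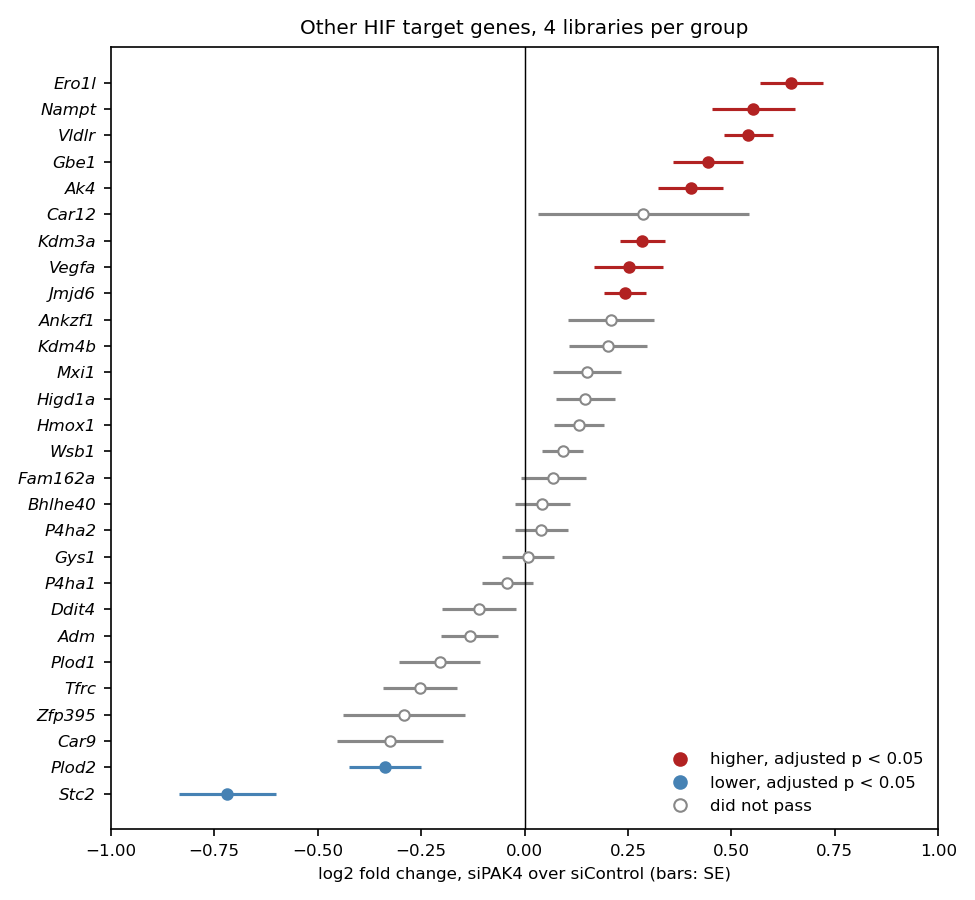
Log2 fold change (x axis, siPAK4 over siControl, bars are standard errors) of the tested HIF target genes outside the 35 members, ordered by value, with 1 called gene left out. Filled points passed an adjusted p of 0.05 in edgeR's quasi-likelihood test, 8 of them higher, with Ero1l the highest at 0.64, and 2 lower, with Stc2 the lowest at −0.72.

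Among 10 tested further glycolytic enzymes, 1 rose, 1 fell and 8 did not pass. The phosphoglucomutase gene Pgm2 rose (0.31, adjusted p = 0.0024), and Eno3, the muscle enolase, fell (−0.57, adjusted p = 0.00065). Of 11 genes of pyruvate oxidation, 2 rose, 1 fell and 8 did not pass. Those that rose, Dlat (0.22, adjusted p = 0.0076) and Pdhx (0.30, adjusted p = 0.022), encode core components of the pyruvate dehydrogenase complex. Pdp2, a phosphatase that reactivates the complex, fell (−0.34, adjusted p = 0.0087). Of 4 tested genes of further lactate handling, 2 fell, the transporter gene Slc16a7 (−0.50, adjusted p = 0.012) and the D-lactate dehydrogenase gene Ldhd (−0.84, adjusted p = 0.026, at about 1.01 CPM in siControl). Only 1 gene of that list was lower without siControl replicate 1, 3 or 4 or siPAK4 replicate 1 or 2. Without siPAK4 replicate 3, 3 were lower. Bsg, the chaperone of the lactate transporters, did not pass, with 367 ± 13.6 CPM in siControl and 353 ± 4.64 CPM in siPAK4. Of 12 further genes of oxygen sensing, 1 rose, 2 fell and 9 did not pass: besides Egln2, the elongin C gene Eloc (−0.21, adjusted p = 0.013) and the ubiquitin ligase gene Siah2 (−0.25, adjusted p = 0.025) were called, both lower. With library totals that list had 3 higher and 0 lower, with neither Eloc nor Siah2 called, and pyruvate oxidation had 5 higher and 1 lower. Of 7 pentose phosphate genes only Rpia, the ribose-5-phosphate isomerase, passed, and it rose (0.52, adjusted p = 0.0029); without siPAK4 replicate 3, 2 genes of that list were also lower. Together these 6 lists had 13 of 73 tested genes higher and 9 lower, against 12.4% and 14.5% of all tested genes. The balance of directions depended on scaling and on 1 library: 23 were higher and 7 lower with library totals, and 14 higher and 14 lower without siPAK4 replicate 3. The background moved as well. With library totals, 3877 of all 17975 tested genes were higher and 1859 lower. Without siPAK4 replicate 3, 2496 of 18220 were higher and 2998 lower.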

How the data were processed

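Polyadenylated RNA of 4 siControl and 4 siPAK4 samples was sequenced. The authors deposited 1 table of 45777 genes with raw counts (whole numbers), TPM and FPKM, per the file headers; 17287 genes had no read. The submitters' processing notes name StringTie 2.1.3b, HISAT2 2.1.0, Bowtie2 2.3.4.1, FastQC 0.11.7 and bcl2fastq 2.20.0, with build mm10. The sources used here do not give the counting step, its strand setting or its treatment of multi-mapping reads. Columns were matched by library name.

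Counts were tested in R 4.3.3 with edgeR 4.0.16 (filterByExpr with a minimum count of 10, TMM, robust quasi-likelihood test), called at 0.05 after Benjamini-Hochberg adjustment over 17975 genes. Adjusted p-values are from that test unless another tool is named. CPM use TMM-scaled totals, and standard errors derive from the F statistic. Alternatives used library totals, DESeq2 1.42.0, other filters, limma 3.58.1 on log2(FPKM + 1), log2(FPKM + 0.1) and log2(TPM + 1), the replicate block, and each library left out. The deposited TPM also gave per-length levels and isoform shares. The procedure was tested on simulated data with changes larger than those of most members, so that test does not cover changes of their size. All members were to be described; of each other pathway list, up to 4 called genes with the smallest adjusted p were named, or the 2 most abundant. Bsg was named after its values were seen. A called HIF target that this rule names is counted but not reported here. The members, gene lists and markers were chosen with earlier results of these data known. Names and coordinates are from RefSeq (GRCm38.p6), counted from 1.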

Additional observations from a re-analysis of the deposited data

Results flagged for a closer look

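In 3 of the 70 sets of 4 libraries formed by the 35 members and the 2 groups, 1 library lay apart from the others by more than Dixon's 95% critical value, where chance gives about 1 set in 20. Aldoc was at 21.5 CPM in siPAK4 replicate 3, against 13.6 to 14.7 CPM in the other siPAK4 libraries. Bnip3l was at 190.0 CPM in siControl replicate 3, against 169 to 173 CPM in the other siControl libraries. Ankrd37 was at 4.86 CPM in siControl replicate 1, against 6.25 to 6.53 CPM in the others.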

How the results depend on the processing

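Hif1a, Bnip3, Slc2a1, Pdk4, Egln3, Aldoc, Pfkm and Ldhb kept their direction and passed the threshold under all 17 alternatives, whereas Slc16a1, Pdk3 and Gapdh did not pass under 8, 7 and 6 of them. No called member changed sign. With library totals, 13 members were higher and 3 lower, and of all genes 3877 were higher (67.6% of calls, against 46.1%) and 1859 lower. With log2(FPKM + 1), 12 members were higher and 3 lower, with 3619 of all genes higher and 1712 lower. With log2(FPKM + 0.1) the counts were 12 and 3 members and 3616 and 1722 genes. The shift of the median over all genes was 0.09 or less. Leaving out each library gave 3 members lower (without siPAK4 replicate 2) to 8 (without siPAK4 replicate 3). Over all genes, 1944 and 2998 were lower without these libraries. The replicate block left 2056 genes higher and 2531 lower and ended only the call of Slc16a1. Same-numbered libraries of the 2 groups deviated with correlations of 0.13, −0.05, 0.20 and −0.12. Those of differently numbered libraries ran from −0.28 to 0.25. With so few libraries these values cannot decide whether the numbers pair the samples. At these depths the scarcest member, Pdk2, had a standard error of 0.207 on the log2 scale.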
